A study of Mus musculus with 9 samples.

Results

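Genes that mark the liver's sinusoidal endothelium, or carry signals from it to hepatocytes, were followed here in aged mouse liver after cutting of Ccnd1 in hepatocytes. The 10 members were taken from the table by gene symbol: Stab2, Lyve1, Clec4g, Oit3, Gpr182, Kdr, Pecam1, Cdh5, Wnt2 and Rspo3. All 10 were found among 27179 genes in the deposited table, and all 10 were among the 12993 genes that were tested.

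The mice were C57BL/6J of wild-type genotype, injected through the retro-orbital sinus at 17 months of age with livers taken 3 weeks later. Every animal, control or not, received AAV8 at 3e11 vector genomes, in which the hepatocyte promoter TBG drove saCas9, a compact nuclease, and a guide RNA under U6. The guide was directed at Rosa26, a neutral cutting site, in the 4 controls (sgRosa26) and at Ccnd1, which encodes cyclin D1, in the other 5 (sgCcnd1). Poly(A) RNA of a frozen piece of one liver lobe was sequenced per animal. No uninjected animals were analysed here, and the labels give no sex or batch. Because TBG restricts the nuclease to hepatocytes, the endothelial cells were not the cells aimed at, and their transcripts were read from whole tissue.

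Sinusoidal endothelial cells line the fenestrated capillaries of the liver. They clear waste molecules from blood through scavenger and lectin receptors, and they depend on VEGF signalling. Those around the central vein secrete Wnt ligands and R-spondins, which keep the pericentral gene programme of neighbouring hepatocytes switched on. Such endothelial signals to other cells are called angiocrine.

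The promoters of Clec4g and Kdr are shown because the 2 genes differed in spread. Clec4g had the smallest spread within groups (8.2% of the mean), and Kdr the widest (24.3%) of the 7 members that moved together. Outside those 7, Wnt2 (30.0%) and Lyve1 (29.8%) spread more widely than Kdr. Each sequence holds the 250 bases before the RefSeq transcription start (GRCm38.p6, minus strand), with matches to the ETS core GGAAG, on either strand, in capitals. The Clec4g window is chr8:3720652-3720901 and the Kdr window is chr5:75978456-75978705.
Clec4g: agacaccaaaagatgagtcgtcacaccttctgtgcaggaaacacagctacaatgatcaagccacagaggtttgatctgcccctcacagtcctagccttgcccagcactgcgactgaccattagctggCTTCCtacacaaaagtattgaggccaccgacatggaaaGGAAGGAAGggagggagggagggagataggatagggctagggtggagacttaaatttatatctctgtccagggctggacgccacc
Kdr: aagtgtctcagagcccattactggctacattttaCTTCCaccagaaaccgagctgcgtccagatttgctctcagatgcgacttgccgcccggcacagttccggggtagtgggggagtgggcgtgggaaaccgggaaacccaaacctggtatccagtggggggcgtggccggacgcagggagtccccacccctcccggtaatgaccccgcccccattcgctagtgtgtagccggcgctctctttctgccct
The Clec4g window held 3 matches, 2 of which overlap, and the Kdr window held 1. Of 32851 promoter windows of this length, 64.1% held at least 1 such match, so a match is common and only describes the sequence. GC content was 52.0% for Clec4g and 61.6% for Kdr, against a median of 52.4% over all windows. The GATA motif AGATAA, present in 9.99% of all windows, occurred in neither. RefSeq promoters were matched for 4 of the 10 members, the other two being Stab2 and Wnt2.

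Depth was 10.8 to 20.2 M gene-assigned reads per library. The letters A to D name the sgRosa26 libraries and E to I the sgCcnd1 libraries. Ccnd1 itself fell from 625 to 867 normalized counts in the controls to 325 to 428 in sgCcnd1, with no overlap (log2 fold change -1.03, standard error 0.115, limma adjusted p = 0.0116). It was the 1 gene of 12993 that passed, and it no longer did when B, D, F, H or I was left out (limma adjusted p 0.0559 to 0.0852). In those 5 fits its log2 fold change stayed between -1.02 and -0.96, and DESeq2 called it with all libraries (adjusted p = 9.13e-12) and without H (1.06e-08). Library H stood apart from the rest: its Y-linked transcripts were at or near 0 (Ddx3y 2.00 normalized counts against 810 to 1154 in the other 8), and Xist was low in every library. Several results are also given without H.

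None of the 10 endothelial members changed detectably. With limma, 0 rose and 0 fell at an adjusted p under 0.05, where 0.00770% of all genes tested passed. At an unadjusted p under 0.05 the count was also 0, against 11.0% of all genes. The edgeR model on recovered reads called 0 members, against 0.00770% of all genes, and DESeq2 called 0, against 0.900%. Control and sgCcnd1 values overlapped for all 10 members, whereas 3.89% of all genes had no overlap. The median log2 fold change of the members was -0.05, with 3 above 0 and 7 below, and that of all genes tested was 0.01. With 1 library left out, the members' median ran from -0.18 without D to 0.02 without C. Without H it was -0.01, with 5 members below 0, and single members lay between -0.39 (Lyve1) and 0.20 (Wnt2), none passing. In whole tissue, fewer endothelial cells and less RNA per cell cannot be told apart, and this holds for every value below.

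**Figure D1:**
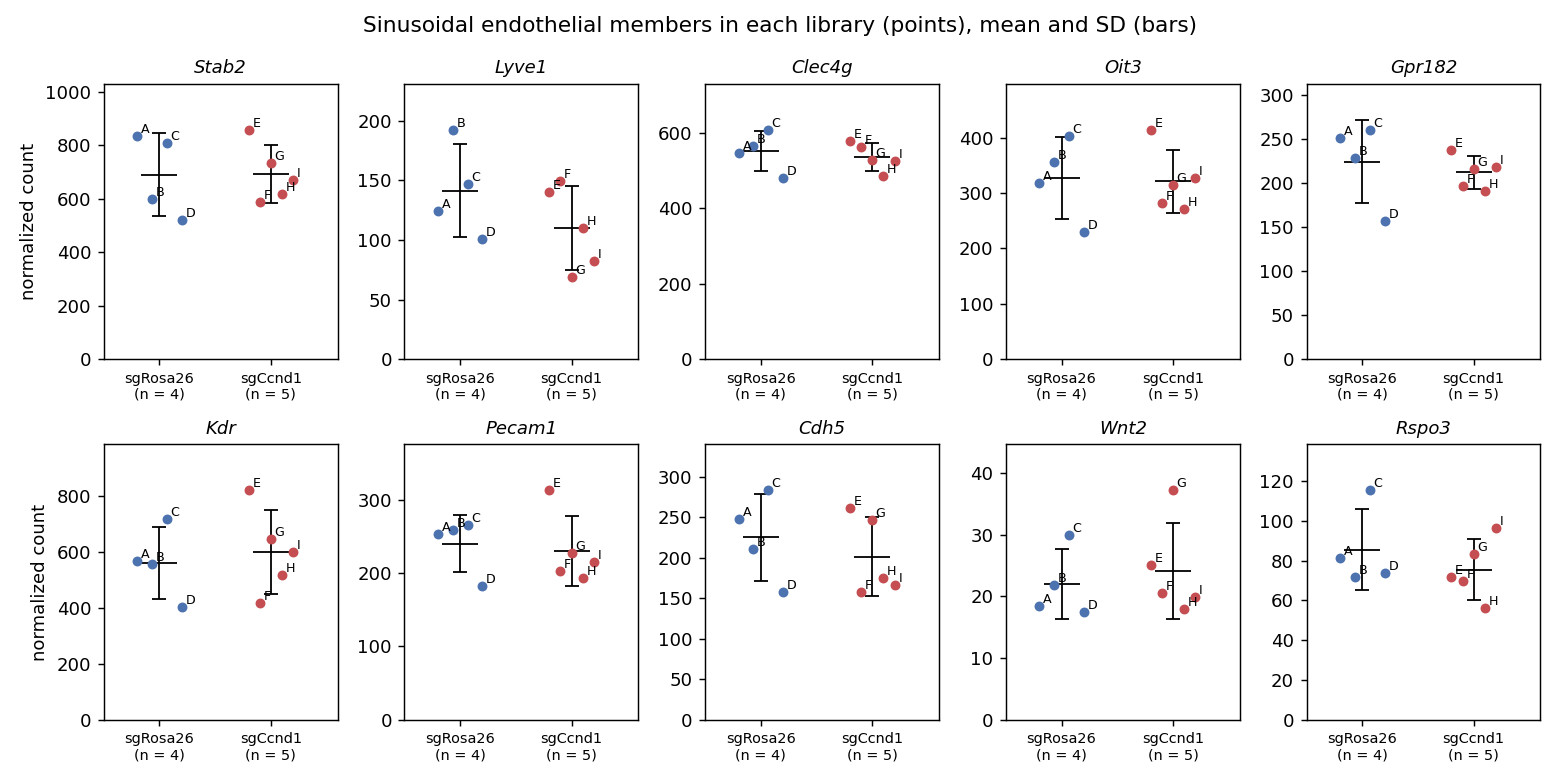
Normalized counts of the 10 members (vertical axes, each from 0) in the 4 sgRosa26 and 5 sgCcnd1 libraries. Points are libraries with their letters, and black bars are the group mean with its SD. The groups overlap in every panel, and library D is the lowest point in 7 of the 10 panels.

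The scavenger and lectin receptors come first. Stab2 (Entrez 192188, GRCm38 chromosome 10, 86841198 to 87008025, minus strand) encodes stabilin-2, the receptor that clears hyaluronan from blood. Its normalized counts were 834, 598, 807 and 521 in controls A to D, and 858, 585, 733, 617 and 668 in sgCcnd1 libraries E to I. Both groups held high and low animals, and 1 sgCcnd1 library lay above the highest control. The group means were 690 ± 155 (SD, n = 4) and 693 ± 108 (SD, n = 5), with a log2 fold change of 0.02 (95% interval -0.31 to 0.35, limma adjusted p = 0.971).

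Clec4g (Entrez 75863, chromosome 8, 3707064 to 3720651, minus strand), the gene of the C-type lectin LSECtin, was the steadiest member. It stood at 546, 565, 608 and 481 normalized counts in A to D and at 579, 563, 529, 484 and 525 in E to I. The highest value was 1.27 times the lowest, and every sgCcnd1 library lay within the range of the controls. The log2 fold change was -0.04, with a 95% interval of -0.23 to 0.16 (limma adjusted p = 0.917). In linear terms that interval runs from 0.85 to 1.12 times the control level, the narrowest of the 10.

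Lyve1 (Entrez 114332, chromosome 7, 110850607 to 110863239, minus strand) encodes a hyaluronan receptor shared by sinusoidal and lymphatic endothelium and some macrophages. It had 124, 193, 147 and 101 normalized counts in A to D and 140, 150, 68.5, 110 and 82.3 in E to I. Libraries G and I were below the lowest control, while E, F and H lay inside the control range. Its mean was 141 ± 39.2 (SD, n = 4) in sgRosa26 and 110 ± 35.2 (SD, n = 5) in sgCcnd1. That gave the largest log2 fold change of the members, -0.38, but its 95% interval, -0.91 to 0.15, spans 0 (limma adjusted p = 0.584, exact permutation p = 0.238). Without control B the log2 fold change was -0.22, and without D it was -0.53, so single animals moved it widely. Of 6 further lymphatic markers, Reln (mean 731 normalized counts), Prox1 (533) and Flt4 (400), which other liver cells also transcribe, were well above the limit for testing. The other 3 were below it: Ccl21a had no reads in 8 of 9 libraries, Pdpn had at most 15.8 normalized counts and Mmrn1 at most 13.0. The part of lymphatic vessels in the Lyve1 values was not tested.

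Oit3 (Entrez 18302, chromosome 10, 59422958 to 59441778, minus strand) is a secreted-protein gene used as a sinusoidal marker. It was at 318, 356, 404 and 229 normalized counts in A to D, and at 415, 281, 314, 271 and 326 in E to I. The lowest animal was a control and the highest an sgCcnd1 mouse. Its log2 fold change was -0.01 (95% interval -0.37 to 0.35, limma adjusted p = 0.988), and its sign turned in 6 of 21 alternative analyses.

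Gpr182 (Entrez 11536, chromosome 10, 127747276 to 127751732, minus strand) encodes an atypical chemokine receptor of sinusoidal endothelium. Values were 251, 229, 261 and 156 normalized counts in A to D and 238, 197, 216, 191 and 219 in E to I. All 5 sgCcnd1 libraries lay within the wider control range. A log2 fold change of -0.06 resulted (95% interval -0.37 to 0.26, limma adjusted p = 0.916), and it was -0.22 without control D. In the GENCODE M21 annotation its exons overlap those of Zbtb39 on the other strand. Exons of Stab2, Clec4g and Rspo3 likewise overlap those of Gm16268, Gm16553 and Gm48159. The counting's use of strand is not given in the sources used here, so reads of these pairs cannot be told apart.

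General endothelial genes follow. Kdr (Entrez 16542, chromosome 5, 75932827 to 75978458, minus strand) encodes VEGFR2, the main signalling receptor for VEGF-A. Its normalized counts were 567, 557, 716 and 401 in A to D and 819, 418, 644, 516 and 600 in E to I. The range over all animals was 2.04-fold, and the top and bottom of it belonged to different groups. The means were 560 ± 129 (SD, n = 4) and 599 ± 150 (SD, n = 5), a log2 fold change of 0.09 (95% interval -0.32 to 0.51, limma adjusted p = 0.895).

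Pecam1 (Entrez 18613, chromosome 11, 106654217 to 106750628, minus strand) encodes the adhesion molecule CD31. It was at 253, 259, 266 and 183 normalized counts in A to D, and at 313, 202, 227, 193 and 214 in E to I. In each group 1 library lay far from the rest, D below the other controls and E above the other sgCcnd1 animals. Pecam1 had a log2 fold change of -0.07 (95% interval -0.40 to 0.27, limma adjusted p = 0.905). It ranged from -0.19 without D to -0.01 without H.

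Cdh5 (Entrez 12562, chromosome 8, 104101625 to 104144511, plus strand) encodes VE-cadherin, which holds endothelial cells together at their junctions. Its values were 248, 210, 283 and 158 normalized counts in A to D and 261, 158, 247, 175 and 166 in E to I. Low values of nearly the same size occurred in both groups. The log2 fold change was -0.16 (95% interval -0.58 to 0.26, limma adjusted p = 0.787), and it ranged from -0.32 without D to -0.04 without C.

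Both angiocrine ligands were the least abundant members. Wnt2 (Entrez 22413, chromosome 6, 17988940 to 18030585, minus strand), a Wnt ligand of pericentral endothelium, had 18.4, 21.9, 30.0 and 17.5 normalized counts in A to D and 25.2, 20.6, 37.2, 18.0 and 19.9 in E to I. These rest on 14 to 38 reads per library, and counting error alone amounts to 20.7% of the mean, beside a spread within groups of 30.0%. The log2 fold change was 0.11, and its 95% interval, -0.43 to 0.66, allows anything from 0.74 to 1.58 times the control level (limma adjusted p = 0.902). Library G, the highest, set the sign: without it the log2 fold change was -0.05.

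Rspo3 (Entrez 72780, chromosome 10, 29452416 to 29535867, minus strand) encodes an R-spondin that amplifies Wnt signals by protecting Wnt receptors from degradation. It had 81.2, 71.9, 115 and 73.8 normalized counts in A to D and 71.7, 69.8, 83.2, 56.0 and 96.5 in E to I. Of the 5 sgCcnd1 libraries 3 were below the lowest control, and library C alone was well above all others. Rspo3 had a log2 fold change of -0.18 (95% interval -0.58 to 0.22, limma adjusted p = 0.748), or -0.02 without C and -0.27 without I.

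**Figure D2:**
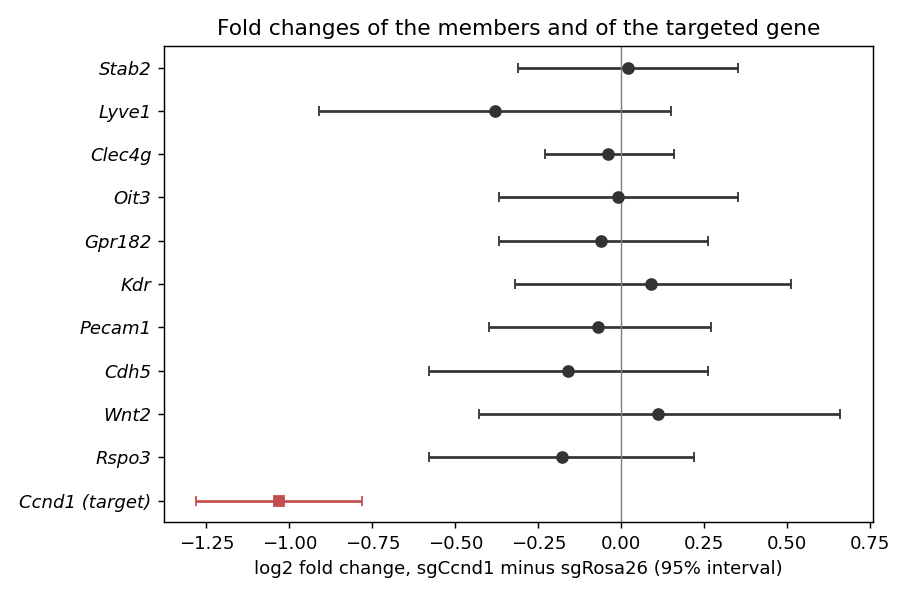
Log2 fold changes (sgCcnd1 minus sgRosa26, horizontal axis) of the 10 members and of Ccnd1, from limma over 9 libraries. Points are estimates and bars 95% intervals: each member's interval spans 0, and that of Ccnd1, centred at -1.03, does not.

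Levels of different genes can be compared only per length, here as normalized counts per kb of exon, using the merged exons of GENCODE M21. Clec4g was the highest at 220 per kb (mean of 9 libraries), and its range, 195 to 247, did not overlap that of any other member. Oit3 followed at 116 and Stab2 at 78.9, and in all 9 libraries Oit3 exceeded Stab2 and Stab2 exceeded Kdr. Kdr (64.5), Gpr182 (55.0), Cdh5 (50.4), Lyve1 (42.5) and Pecam1 (37.6) formed a middle group in which neighbours changed places between animals: each exceeded the next in 6 or 7 of 9 libraries. Rspo3 was at 25.9 and Wnt2 at 10.3 per kb, with ranges that did not overlap each other. All 10 members had reads in every library.

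What varied was the animal, and most members varied together. In library C all 10 members were above their own mean over the 9 libraries, and in E 9 of 10 were. In D and in H all 10 were below, and D held the lowest value of 7 members. The mean deviation of the 10 members was 0.33 in C, 0.25 in E, -0.34 in D and -0.22 in H on the log2 scale. Because C and D are controls and E and H are not, high and low libraries occurred in both groups.

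**Figure D3:**
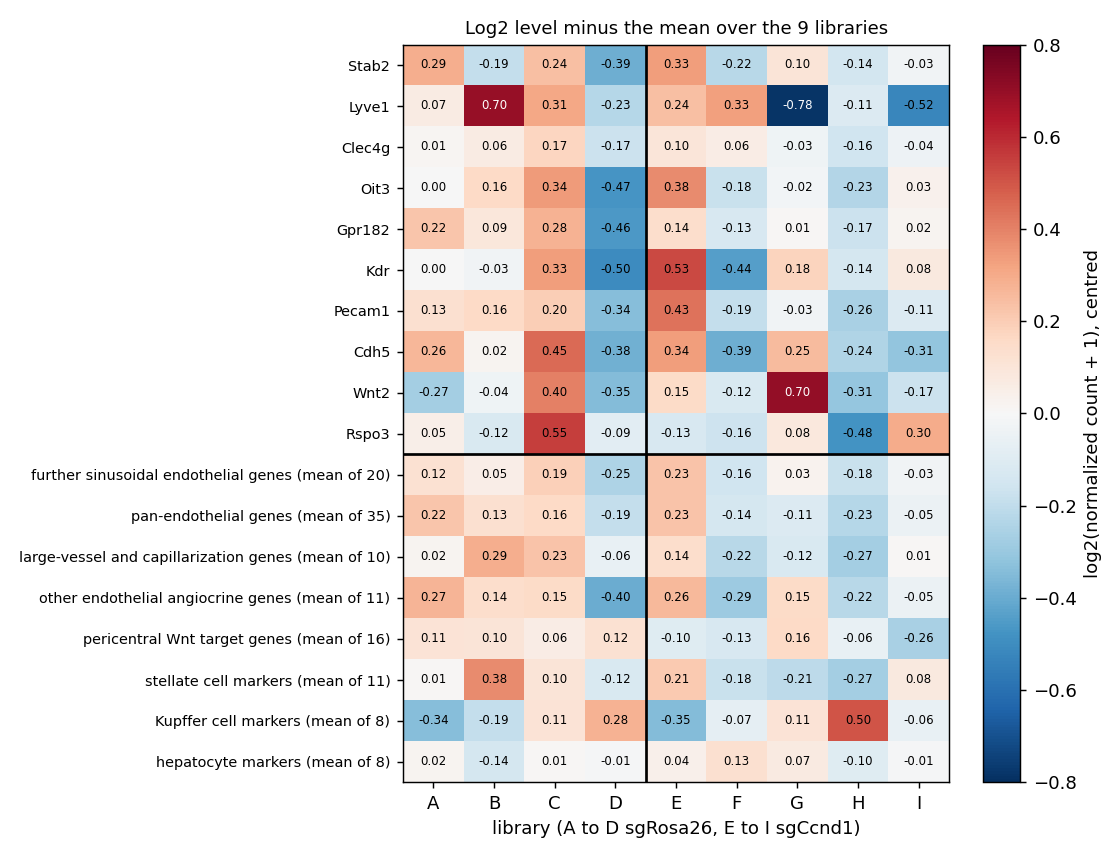
Log2 level minus the mean over the 9 libraries, for each member (upper rows) and as the mean of companion gene lists (lower rows), with libraries A to D (sgRosa26) left of the vertical line and E to I (sgCcnd1) right of it. Most members and the further sinusoidal list are high in C and E and low in D and H, while Lyve1, Wnt2 and Rspo3 follow other orders.

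The shared course was close for 7 members and loose for 3. Over the 9 libraries, Pearson's r of each member with the mean standardized profile of the other 9 was 0.95 for Oit3, 0.91 for Gpr182, 0.90 for Pecam1, 0.87 for Cdh5, 0.84 for Kdr, 0.84 for Clec4g and 0.81 for Stab2. It was 0.56 for Wnt2, 0.48 for Rspo3 and 0.20 for Lyve1. These values describe 9 libraries that share their normalization and are no test. Lyve1 and Stab2, both hyaluronan receptors, had an r of 0.01 with each other, and Wnt2 with Rspo3 an r of 0.47. Counting error was 20.7% of the mean for Wnt2, 11.3% for Rspo3 and 8.89% for Lyve1, against spreads within groups of 30.0%, 22.0% and 29.8%.

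Among 10402 other genes averaging 50 or more normalized counts, the 5 whose profile was most like the mean of the members were Pde2a (r = 0.98 over 9 libraries), Adgrl4, Eif2ak4 and Cd55 (each 0.93) and Tspan7 (0.92). Pde2a, which encodes a cyclic-nucleotide phosphodiesterase, was at 379, 354, 427 and 244 normalized counts in A to D and at 415, 301, 364, 267 and 291 in E to I. As in the members, C and E were high and D and H low. None of the 5 passed the test between groups (limma adjusted p from 0.744 to 0.930). They were chosen for likeness to the members over these same libraries, so neither this nor their course is further evidence.

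Markers of other cell types were set beside the members. The 8 markers of Kupffer cells, the resident macrophages, did not move as one. Their mean deviation was 0.28 in D, 0.50 in H, -0.35 in E and 0.11 in C. Marco was at 9.15 normalized counts in E and 376 in H, against 40.6 to 125 in the other 7 libraries. Vsig4 was highest in E (334) and Clec4f lowest in H (528), the same side as the members. Stellate cell markers stood at 0.10 in C, 0.21 in E, -0.12 in D and -0.27 in H, and were highest in B (0.38). T and NK cell markers stood at 1.13 in C, 0.79 in E, 0.30 in D and -1.38 in H, and were highest in B. Over the 9 libraries, r with the members' mean was 0.62 for the stellate, 0.63 for the T and NK cell and -0.57 for the Kupffer list. It was 0.65 for the 3 lymphatic markers tested and 0.47 for the B and plasma cell list. For the cholangiocyte, hepatocyte and red cell lists it was 0.13, 0.11 and 0.03. The mean deviation of the hepatocyte list lay between -0.14 and 0.13 in all libraries, though single markers ranged more widely, as Cps1 did from 26090 normalized counts in B to 57890 in A. The part of tissue sampling or cell makeup in the variation of the members was not tested. Depth was 16.6 and 20.2 M reads in C and E, and 16.2 and 15.5 M in D and H.

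Further genes of the same cells and pathways came from 8 lists, with 116 distinct genes tested. Of these, 0 passed in limma over all genes. At an unadjusted p under 0.05, 2 were above the controls, where 5.22% of all genes were, and 12 below, where 5.74% were. That total of 14 ran from 7 of 115 without H, in a fit where 8.01% of all genes passed, to 21 of 116 without D, where 11.2% did. Groups did not overlap for 4 of the 116, all of them lower in sgCcnd1, against 1.97% of all genes in that direction. Fold changes were below 0 for 81 of the 116 and for 47.1% of all genes. The edgeR model called 0 of them, and DESeq2 called 2, Smad6 and Tcf7l2, against 0.900% of all genes. The median log2 fold change of the 116 was -0.10, beside 0.01 for all genes.

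**Figure D4:**
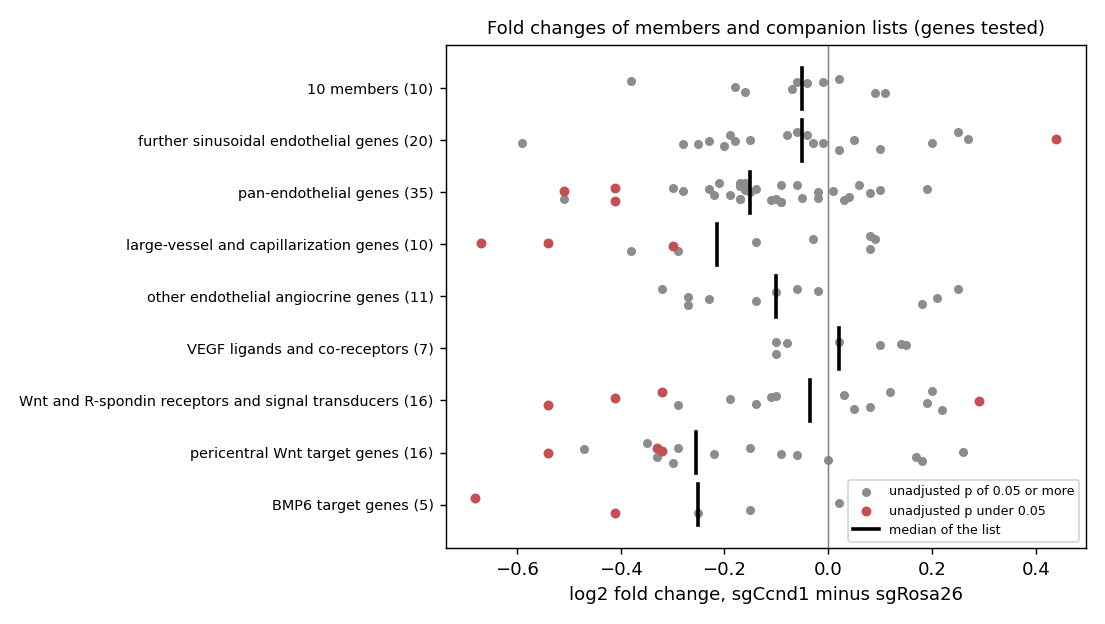
Log2 fold changes (sgCcnd1 minus sgRosa26) of the 10 members and of each companion list, 1 point per gene tested, with list medians as black bars and genes at an unadjusted p under 0.05 in red. The members and the further sinusoidal genes centre near 0 (median -0.05 for both), the pericentral Wnt targets centre at -0.25, and the 5 BMP6 targets at -0.25, or -0.04 without library G.

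Among 20 further sinusoidal genes, 0 passed over all genes, 7 had fold changes above 0 and 13 below, with a median of -0.05 that ran from -0.14 without D to 0.01 without H. Efnb2, the ephrin-B2 gene of arterial-side endothelium, had the smallest p: 48.0, 49.1, 33.8 and 34.0 normalized counts in A to D and 71.7, 42.1, 51.9, 57.0 and 58.2 in E to I. Only F of the sgCcnd1 group lay within the control range (log2 fold change 0.44, limma adjusted p = 0.421). Stab1, the second stabilin, stood at -0.23 on the log2 scale (limma adjusted p = 0.503) and the transcription factor gene Tfec of -0.59 (0.522). Tfec was at 24.5 to 29.8 normalized counts in 7 libraries, and at 12.0 in H and 8.52 in I.

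Of 35 pan-endothelial genes, 0 passed, and 28 had fold changes below 0 with a median of -0.15. That median was -0.21 without D, -0.09 without A, -0.06 without H and -0.08 after quantile normalization. Among the 20 of these genes averaging 100 or more normalized counts, 13 were below 0, with a median of -0.06. Klf2, a flow-responsive transcription factor gene, was at 145, 138, 151 and 135 normalized counts in A to D and at 117, 127, 131, 89.0 and 78.1 in E to I. All sgCcnd1 values lay below all controls (log2 fold change -0.41), yet the limma adjusted p was 0.372. Ecscr (-0.51, limma adjusted p = 0.421) and the tight-junction gene Cldn5 (-0.41, 0.452) were the next by p, and both overlapped between groups.

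The 10 large-vessel and capillarization genes tested, whose rise in sinusoids is taken as a sign of lost specialization, had a median of -0.22, which was -0.37 without E and -0.11 without H (9 genes tested in each) and -0.08 after quantile normalization. None passed, 3 had fold changes above 0 and 7 below. Gja4, a connexin gene, had 35.7, 39.4, 45.1 and 35.0 normalized counts in A to D and 28.2, 26.9, 22.5, 21.0 and 34.1 in E to I, which do not overlap (log2 fold change -0.54, limma adjusted p = 0.334). Plvap, a component of fenestral diaphragms, differed by -0.30 on the log2 scale (limma adjusted p = 0.401) and Cd34 of -0.67 (0.445).

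The 11 other angiocrine genes tested had a median of -0.10, and 0 passed. Leaving out 1 library moved that median between -0.16 (without G) and -0.03 (without A), with -0.05 without H. By p the first were Cxcl12 (log2 fold change -0.14, limma adjusted p = 0.559), Kitl (-0.27, 0.650) and Pdgfb (-0.32, 0.664). Wnt9b, the second Wnt of central-vein endothelium, and Bmp6, the endothelial regulator of hepcidin, were singled out after their values were seen. Wnt9b was at 6.80 to 19.7 normalized counts in controls and 7.0 to 19.6 in sgCcnd1 (log2 fold change 0.21, 95% interval -0.61 to 1.03, limma adjusted p = 0.872). Bmp6 was at 58.3 to 95.7 and 57.0 to 81.3 (log2 fold change -0.06, 95% interval -0.42 to 0.30, limma adjusted p = 0.924).

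The list of VEGF ligands and co-receptors had a median of 0.02 over 7 genes, or -0.06 with edgeR and DESeq2, and 0 passed. The smallest p belonged to Nrp2 (log2 fold change 0.15, limma adjusted p = 0.616), Vegfb (0.14, 0.663) and Vegfa (-0.08, 0.764). Vegfa, largely a hepatocyte product in liver, was at 3916 to 4822 normalized counts in controls and 3616 to 4283 in sgCcnd1.

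On the receiving side of Wnt2 and Rspo3, 16 receptor and signal-transduction genes had a median of -0.03, or 0.03 without H, and 0 passed in limma. Tcf7l2, a transcription factor gene at the end of the Wnt pathway, had 440, 389, 453 and 416 normalized counts in A to D and 287, 333, 331, 280 and 375 in E to I. The groups did not overlap (log2 fold change -0.41, limma adjusted p = 0.253). DESeq2 called it with all libraries (adjusted p = 0.0371) but not without H, where its log2 fold change was -0.37 (adjusted p = 0.193). The other 4 sgCcnd1 values still lay below every control. Lgr5, an R-spondin receptor gene, was at 124, 125, 107 and 121 in A to D and at 77.8, 68.9, 139, 63.0 and 78.1 in E to I. Library G was above all controls and the other 4 below them (log2 fold change -0.54, limma adjusted p = 0.358). Rnf43, the ubiquitin ligase that R-spondins restrain, differed by -0.32 on the log2 scale (limma adjusted p = 0.372). Lrp6, a Wnt co-receptor gene singled out after its values were seen, went the other way, with 787 to 989 normalized counts in controls and 887 to 1273 in sgCcnd1 (log2 fold change 0.29, limma adjusted p = 0.421). Lgr4, another R-spondin receptor gene singled out in the same way, had 860 to 1191 normalized counts in controls and 992 to 1381 in sgCcnd1. Its log2 fold change was 0.20 (95% interval -0.06 to 0.46, limma adjusted p = 0.560). Fold changes in this list were above 0 for 8 genes and below 0 for 8.

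The 16 pericentral Wnt target genes, which include Lgr5 and Rnf43, had a median of -0.25. Of these 13 were below 0 and 0 passed, 3 of 16 being at an unadjusted p under 0.05, where 11.0% of all genes were. That count was 5 without D or without G, and 2 in edgeR or DESeq2 without H. The 3 genes with log2 fold changes above 0 were Tbx3 (0.26), Cyp2e1 (0.18) and Slc1a2 (0.17). Glul, counted among those below 0, was at 0.00 (95% interval -0.31 to 0.31). These genes were named after their values were seen. Notum, a secreted Wnt inhibitor, had 889, 659, 742 and 821 normalized counts in A to D and 643, 659, 705, 528 and 548 in E to I, with an overlap between groups (log2 fold change -0.33, limma adjusted p = 0.334). Axin2, a general Wnt target singled out after its values were seen, was at 109 to 189 and 104 to 155 (log2 fold change -0.09, limma adjusted p = 0.888). The median of this list stayed between -0.29 and -0.15 in the 21 alternatives. Its mean deviation was 0.12 in D, where the members were lowest, and over the 9 libraries its r with the members' mean was 0.12.

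BMP6 targets, 5 genes, had a median of -0.25, and 0 passed in limma. The median rests on single animals: it was -0.04 without G and -0.45 without H. Smad6, an inhibitory SMAD gene also transcribed in endothelium, had 175, 186, 163 and 168 normalized counts in A to D and 137, 104, 98.9, 122 and 85.2 in E to I. The groups did not overlap (log2 fold change -0.68, standard error 0.137, limma adjusted p = 0.225). DESeq2 called it with all libraries (adjusted p = 0.00721) and without H (0.0196). Atoh8 differed by -0.41 on the log2 scale (limma adjusted p = 0.368), and Hamp, the hepcidin gene, of -0.25 (0.747).

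Markers of the other cells a liver piece can hold were read from 8 lists, and 0 of their 48 genes tested passed in limma. Median log2 fold changes were -0.20 for 3 lymphatic markers, 0.00 for 8 Kupffer, -0.18 for 11 stellate, -0.01 for 8 hepatocyte, -0.31 for 5 cholangiocyte, -1.24 for 4 T and NK cell, -0.45 for 6 B and plasma cell and 0.05 for 4 red cell markers. With 1 library left out, the cholangiocyte median ran from -0.40 (without C) to 0.02 (without H), with -0.09 without A and -0.08 without B. Without H or A a further gene, Cldn7, passed the filter, so those medians are over 6 genes. The B and plasma cell median ran from -0.65 (without E) to -0.24 (without I), the lymphatic from -0.33 (without D) to -0.12 (without A or C) and the stellate from -0.24 (without D or E) to -0.10 (without B). The Kupffer median ran from -0.12 (without H) to 0.12 (without D), the hepatocyte from -0.06 (without F) to 0.08 (without D), with 0.07 without H, and the red cell from -0.24 (without A) to 0.21 (without B), with 0.18 without H. Summed T and NK cell markers ranged from 79.9 to 196 normalized counts in controls and from 44.0 to 139 in sgCcnd1. The 4 genes of that list that were tested were at an unadjusted p under 0.05, where 11.0% of all genes were, with Cd3e at -1.52 (limma adjusted p = 0.321), Cd8a at -1.41 (0.388) and Cd4 at -0.65 (0.382). That count was 1 without B or without C, and 2 without G, without H or with edgeR. The summed members ranged from 2321 to 3638 in controls and from 2630 to 3719 in sgCcnd1. Without H the T and NK cell median was -0.98, the stellate -0.13 and the pericentral Wnt target median -0.25. The part of the T and NK cell signal in the endothelial values was not tested.

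Within the remaining lists the genes with the smallest p did not pass either. They were Reln (log2 fold change -0.27), Flt4 (-0.20) and Prox1 (-0.15) for lymphatic endothelium, and Cd163 (0.63), Vsig4 (-0.25) and Cd5l (-0.06) for Kupffer cells. Stellate cells gave Pdgfrb (-0.50), Reln and Dcn (-0.27), and hepatocytes Cps1 (0.40), Hnf4a (0.14) and Apob (0.18). For cholangiocytes they were Sox9 (-0.51), Spp1 (-0.31) and Krt7 (-0.34), for B and plasma cells Mzb1 (-0.87), Ms4a1 (-0.50) and Cd79a (-0.41), and for red cells Alas2 (0.15), Hbb-bs (-0.11) and Hba-a2 (0.13). Limma adjusted p-values for these genes ran from 0.333 to 0.950.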

How the data were processed

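Per the submitters' processing notes, the tools named are Trim Galore 0.6.7, HISAT2 2.2.1, featureCounts 2.0.3, FastQC 0.74, MultiQC and DESeq2 2.11.40.8, and the build is mm10 (GRCm38). The annotation and the use of strand are not given in the sources used here. The deposited table holds 1 signal per gene and library, called normalized counts by its name. In each library 100% of values were whole multiples (within 0.1) of 1 number, so reads were recovered.

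Its columns name the guide target and an animal, so each was matched to a group only. Whether replicates came from separate cages or litters is not stated, and p-values measure the spread between these 9 animals. Genes averaging 10 or more normalized counts were tested on log2(normalized count + 1) with limma 3.58.1 in R 4.3.3 (lmFit, eBayes with trend, two-sided, no covariates). The added 1 shrinks changes of low genes, but limma did not give the smaller change for every low gene. The T and NK cell median was -1.24 in limma, -1.06 with DESeq2 and -1.02 with edgeR (TMM). P-values were adjusted by the Benjamini-Hochberg method over all genes tested, with a threshold of 0.05. Single genes also had an exact two-sided permutation test over 126 splits, which gives no p below 0.00794. Alternatives were pseudocounts of 0.1 and 10, testing every gene or those averaging 100 or more, quantile normalization, a common 75th percentile, robust eBayes, each library left out, and edgeR 4.0.16 (TMM and RLE) and DESeq2 1.42.0 on recovered reads. Count models without H were added after seeing the data. The code was tested on simulated data.

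The members, the companion lists and the tests were chosen with earlier results of these data known. Named were all members, up to 3 genes of smallest p per list, the 5 genes most like the members, and the targeted loci. Coordinates and exon lengths are from GENCODE M21 (GRCm38), promoters from RefSeq. Depth limits precision by counting error only. Figures used matplotlib 3.10.9.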

Additional observations from a re-analysis of the deposited data

Results flagged for a closer look

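Of 136 groups of values examined for an animal far from the rest, 17 held one, where about 1 in 20, or 6.8, would by chance. That figure assumes independent values. These come from the same 9 libraries, and many genes were named for small p or likeness, so the excess cannot be read from it. Among the members this was Pecam1 on both sides: control D had 182.6 normalized counts where A to C had 253 to 266, and sgCcnd1 library E at 312.6 against 193 to 227. Library E was also the highest of its group for Adgrl4 (213.5 against 135 to 152), Flt4 (496.3 against 330 to 359), Vsig4 (333.9 against 212 to 237) and Cd8a (40.4 against 3.00 to 8.95), and the lowest for Cd163 (29.73 against 80 to 95).

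In control D Vegfb was at 436.1 normalized counts against 333 to 340, and in control A Rnf43 was at 565.6 against 417 to 420. Within sgCcnd1, Lgr5 was at 139 in G against 63.0 to 78.1, and Vegfa at 3616 in I against 4131 to 4283. Depth of control A was 12.25 M reads against 16.2 to 16.6 M. In library H, Ddx3y was at 1.999 normalized counts and Kdm5d, Uty and Eif2s3y at 0, and in control B Eif2s3y was at 415.5 against 944 to 1004.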

How the results depend on the processing

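No paired analysis was possible because the groups are different animals that no label ties together, and columns show no replicate number. The count of members called, 0 higher and 0 lower, was the same in all 21 alternatives, and the smallest adjusted p of any member in any of them was 0.465. With a minimum mean of 100, Wnt2 and Rspo3 were not tested. Of the 116 companion genes, 0 by limma, DESeq2 called 2 and, without H, 1 (Smad6 both times). Ccnd1 lost the threshold in limma without B, D, F, H or I and in edgeR without H (log2 fold change -1.02, adjusted p = 0.0559), where fewer samples entered.

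Signs of fold changes near 0 turned in 20 of 208 member values. Stab2 was at -0.0133 with quantile normalization, -0.0136 with a common 75th percentile and -0.00249 with edgeR. Without H, Oit3 was at 0.0235 (edgeR) and 0.0276 (DESeq2), Bmp6 at 0.00304 and 0.00811, and Hbb-bs at 0.0561 and 0.0682. Bmp6 was at 0.00618 with quantile normalization, and Hba-a2 at -0.17, -0.16 and -0.14 with edgeR (TMM, RLE) and DESeq2. With 1 library left out, ranges were -0.11 to 0.12 for Stab2, -0.0982 to 0.0147 for Clec4g, -0.17 to 0.10 for Oit3, -0.22 to 0.0251 for Gpr182, -0.059 to 0.22 for Kdr and -0.0477 to 0.27 for Wnt2. Among companion genes they were -0.42 to 0.12 for Prox1, -0.14 to 0.0858 for Cd5l, -0.0502 to 0.25 for Alas2, -0.29 to 0.16 for Hbb-bs, -0.43 to 0.68 for Hba-a2, -0.25 to 0.0155 for Pde2a and -0.11 to 0.24 for Adgrl4. The same range was -0.12 to 0.033 for Eif2ak4, -0.19 to 0.0447 for Bmp6, -0.20 to 0.0634 for Axin2 and -0.11 to 0.16 for Gt(ROSA)26Sor.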
